A study of Mus musculus with 24 samples.

Results

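The 36 genes of DNA replication licensing and synthesis described here were the protein-coding genes listed under 36 fixed symbols, out of 56748 genes counted, 21970 of them protein coding. All 36 symbols were found once, and all 36 passed the filter on low counts in every comparison. RNA was sequenced from endothelial cells of adult mouse liver, purified with magnetic beads as Cd31+ cells (the general endothelial population) or Cd146+ cells (sinusoidal endothelial cells), cultured, and transduced with a lentivirus. The study's methods give 3-month-old female C57BL/6 mice as the source. Each population received 1 of 4 constructs, with 3 libraries for each of the 8 combinations and 24 in all. P16 shRNA is a small hairpin against P16Ink4a in the pLKO.1 vector, and nc shRNA is its non-coding counterpart, also carried by pLKO.1. P16 is a P16Ink4a cDNA fused to GFP in a puromycin-resistance vector, and empty vector is that vector without the cDNA. Every library therefore came from cultured, transduced cells taken 1 week after transduction, and the hairpin and the cDNA each have their own control. Nothing in the labels states that replicates came from separate animals, so p-values measure the spread between these libraries only.

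DNA replication is prepared in G1, when the origin recognition complex (here Orc1 and Orc6) together with Cdc6 and Cdt1 loads the ring of Mcm2 to Mcm7 onto DNA, a step called licensing, while geminin (Gmnn) holds Cdt1 back once S phase has begun. In S phase Mcm10, Cdc45 and the GINS complex (Gins1 to Gins4) turn the loaded ring into a running helicase. The primase and polymerase alpha start each strand, the clamp Pcna, opened by its loader (Rfc2 to Rfc5), keeps polymerases delta and epsilon on the template, and Fen1 and Lig1 finish the Okazaki fragments of the lagging strand. P16Ink4a inhibits Cdk4 and Cdk6, which keeps the retinoblastoma protein active against E2F factors, and many replication genes are known E2F targets. Most of these genes are expressed mainly around the start of S phase. In bulk libraries fewer cells in S phase and less RNA per cell cannot be told apart.

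RefSeq promoter windows (build GRCm38.p6) were found for 29 of the 36 genes, 34 windows in all. In the 250 bases before the annotated start, 1 of the E2F words TTTGGCGC, TTTCCCGC, TTTCGCGC and TTTGCCGC, on either strand, was present in 9 of the 34 windows (26.5%), against 1.86% of the 32851 windows of all genes. The same words stood in 13% of the windows of 55 other replication genes and in 3.03% of those of 36 mitosis genes. CCAAT, on either strand, was present in 61.8% of the members' windows, 75.8% of the mitosis windows and 33.8% of all windows. The words TTTGAA and TTCGAA, written like the cell cycle homology region of G2 genes, were present in 17.6%, 36.4% and 17.1%. The windows of 5 genes are printed because their genes carry the results that follow: Mcm5, Mcm6 and Cdc6 hold E2F words, Rpa2 was among the most changed genes and holds none, and Rrm1 differed in sign from most others in 3 of the 4 comparisons when the replicate number was not modelled. Capitals mark E2F words on either strand, which overlap in Mcm5 and at 1 of the 2 places in Mcm6. The sequences read 5′ to 3′ in the direction of transcription.
Mcm5: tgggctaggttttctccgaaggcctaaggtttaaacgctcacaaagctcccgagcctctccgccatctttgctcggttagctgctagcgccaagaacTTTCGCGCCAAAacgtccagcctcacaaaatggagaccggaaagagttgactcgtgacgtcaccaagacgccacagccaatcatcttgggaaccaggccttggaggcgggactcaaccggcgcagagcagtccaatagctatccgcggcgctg
Mcm6: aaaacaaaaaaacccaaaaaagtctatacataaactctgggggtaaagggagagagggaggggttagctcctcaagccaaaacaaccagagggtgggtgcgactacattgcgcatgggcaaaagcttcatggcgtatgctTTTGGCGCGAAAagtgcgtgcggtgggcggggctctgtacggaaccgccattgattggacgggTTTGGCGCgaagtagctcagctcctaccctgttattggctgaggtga
Cdc6: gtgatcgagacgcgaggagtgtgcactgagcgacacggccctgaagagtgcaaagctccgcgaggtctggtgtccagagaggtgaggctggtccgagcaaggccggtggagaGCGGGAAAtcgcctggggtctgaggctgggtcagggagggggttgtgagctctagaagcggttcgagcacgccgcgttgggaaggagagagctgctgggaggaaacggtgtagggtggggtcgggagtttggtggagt
Rpa2: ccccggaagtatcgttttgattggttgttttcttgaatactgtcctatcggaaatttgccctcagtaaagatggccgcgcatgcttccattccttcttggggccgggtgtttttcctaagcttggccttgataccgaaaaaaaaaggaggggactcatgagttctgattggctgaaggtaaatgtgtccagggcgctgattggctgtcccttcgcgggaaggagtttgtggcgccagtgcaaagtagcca
Rrm1: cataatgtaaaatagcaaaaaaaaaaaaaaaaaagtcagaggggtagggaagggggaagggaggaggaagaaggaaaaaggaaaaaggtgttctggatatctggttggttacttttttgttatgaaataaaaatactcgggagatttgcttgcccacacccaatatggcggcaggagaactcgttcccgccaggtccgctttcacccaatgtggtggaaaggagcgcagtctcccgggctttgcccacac
The windows lie at chr8:75109259-75109508 (plus strand), chr1:128359706-128359955 (minus strand), chr11:98907901-98908150 (plus strand), chr4:132768110-132768359 (plus strand) and chr7:102441445-102441694 (plus strand), each just upstream of the transcribed part. In Mcm5 the pair of overlapping words began 153 and 149 bases before the start, and in Cdc6 the word began 138 bases before it. These matches describe the letters only.

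The 24 libraries held 15409767 to 26470392 counts on genes, and the least counted member in any library, Orc1, had 20. The 36 genes together took 0.0703 to 0.229% of the counts. Cdkn2a, the gene of P16Ink4a, was left at 11.7% of its control with P16 shRNA in Cd31+ cells (6.63 ± 2.24 against 56.5 ± 19.5 CPM, counts scaled to the size of the library; SD, n = 3 each) and at 10.7% in Cd146+ cells (14.8 ± 9.26 against 138 ± 50.5 CPM). With P16 it was 4.05-fold higher in Cd31+ cells (231 ± 96.1 against 57 ± 24.6 CPM) and 5.39-fold higher in Cd146+ cells (497 ± 307 against 92.3 ± 19 CPM). Its adjusted p from edgeR was 0.0218, 0.361, 0.947 and 0.986 in that order. Groups did not overlap in any of the 4 comparisons (two-sided p = 0.1 by exact permutation, the lowest that 3 against 3 can give). Marker lists were read in every library: summed endothelial markers (10 of 10 genes found) lay between 285 and 2290 CPM, sinusoidal markers between 110 and 516, macrophage markers between 16.4 and 397, mesenchymal markers, collagens among them, between 6500 and 50900, cholangiocyte markers between 38 and 979, hepatocyte markers between 0 and 2.91 and lymphoid markers between 0.057 and 0.785. Of the 8 sinusoidal markers 5 had a mean over 1 CPM. Stab2, which is on that list, stayed under 1 CPM in all 24 libraries, the Cd146+ ones included. The 3 Cd146+ libraries numbered 3 (nc shRNA, P16 shRNA and P16) held only 4.00 to 10.1 CPM of Pecam1, the gene of Cd31, where the other 21 held 61.3 CPM or more. Mcam, the gene of Cd146 by which they were sorted, was also low in them, at 3.18 to 11.6 CPM against 32.06 CPM or more in the others. The endothelial marker Cdh5 was at 3.71 to 6.37 CPM against 46.65 CPM or more. In 16 libraries the Y-linked Ddx3y was above 10 CPM with Xist under 1 CPM, and in 8 the reverse, although the methods name female mice. The latter were the libraries numbered 4, 5 and 6. In Cd146+ cells they made up 1 of the 3 libraries with nc shRNA, 2 with P16 shRNA, 2 with empty vector and 1 with P16, and in Cd31+ cells 1 each with empty vector and P16. Counts and medians on Cd146+ cells are also given without the libraries numbered 3. The part of these differences in the results was not tested.

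By the FPKM values the authors deposited, which are per length and so can be set beside each other between genes, the members differed widely. Rrm1, the large subunit of ribonucleotide reductase, was highest (26.8 FPKM as the mean of the 24 libraries, 12.2 to 49.3), followed by Pcna (25.6, 13.5 to 43.6) and Rrm2 (23.5, 7.48 to 38.2). The helicase subunits Mcm7, Mcm6 and Mcm4 followed Gins4 at 16.2 to 16.9 FPKM. The loading factors stood lower than these, from Orc6 at 11.3 down to Cdc6 at 2.03 and Orc1 at 1.17 FPKM. Gmnn, which holds Cdt1 back, was at 9.04 FPKM. The lowest was Fen1 at 1.02 FPKM, the flap endonuclease. The ranges of neighbours in this order overlapped widely. Of the 36 genes, 17 overlap no other annotated gene, and 11 overlap one with a mean over 1 CPM. They are Mcm7, Orc6, Cdc45, Gins2, Rfc2, Rfc4, Rfc5, Tk1, Fen1, Lig1 and Chaf1a. Among overlaps with a gene over 1 CPM, the largest shares of a member's length were in Gins2 with Gse1 (25.8%, 33.9 CPM) and Chaf1a with Ubxn6 (16.5%, 19.6 CPM). Rfc4 overlaps Eif4a2 (296 CPM) over 1.41% and Fen1 overlaps Tmem258 (54 CPM) over 3.1%. Genes under 1 CPM cover larger parts: Gm20708 100% of Tk1, Gm10143 64.6% of Fen1 and Gm12743 63.3% of Orc1. Whether the counting used the strand is not stated, so values of the 19 overlapped genes are uncertain.

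**Figure D1:**
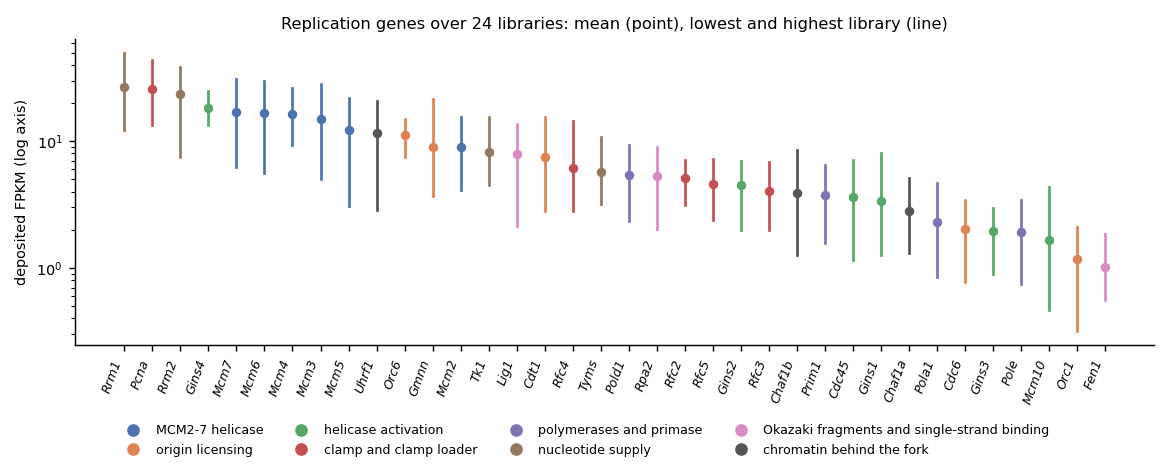
Deposited FPKM of each replication gene (log axis), with the mean over 24 libraries as a point, the lowest and highest library as the ends of the line, and the colour for the role. Rrm1, Pcna and Rrm2 stand highest and Mcm10, Orc1 and Fen1 lowest, and the ranges of neighbouring genes overlap.

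Across the 8 groups the level of the 36 genes was summarised as their mean log2 CPM. In Cd31+ cells it was 4.92 ± 0.12 (SD, n = 3) with P16 shRNA against 4.62 ± 0.10 with nc shRNA, and 4.46 ± 0.15 with P16 against 4.64 ± 0.20 with empty vector. In Cd146+ cells it was 4.85 ± 0.48 with P16 shRNA against 4.21 ± 0.42 with nc shRNA, and 3.91 ± 0.47 with P16 against 4.53 ± 0.11 with empty vector. In the order of the 8 means, no neighbouring groups differed by more than the larger of their SDs. Of the 36 genes, 17 had their highest group mean with P16 shRNA in Cd31+ cells and 17 with P16 shRNA in Cd146+ cells, and 33 had their lowest with P16 in Cd146+ cells. Single libraries weighed heavily there: Cd146+ P16 shRNA replicate 3 was the highest of the 24 for 30 genes, and Cd146+ P16 replicate 1 the lowest for 31. The nc shRNA library of the same number was low as well: the pair of Cd146+ libraries numbered 1 stood at 3.37 (P16) and 3.74 (nc shRNA), and the other Cd146+ libraries at 4.13 to 5.40. This pair had 1.85 and 2.05% mitochondrial counts against 1.06 to 1.51% in the others, and 12620 and 10900 CPM of mesenchymal markers, where the others held 6504 to 31220. Their part in the low level with P16 was not tested. Without the libraries numbered 3, the Cd146+ means were 4.14 with nc shRNA, 4.58 with P16 shRNA and 3.75 with P16 (n = 2 each).

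**Figure D2:**
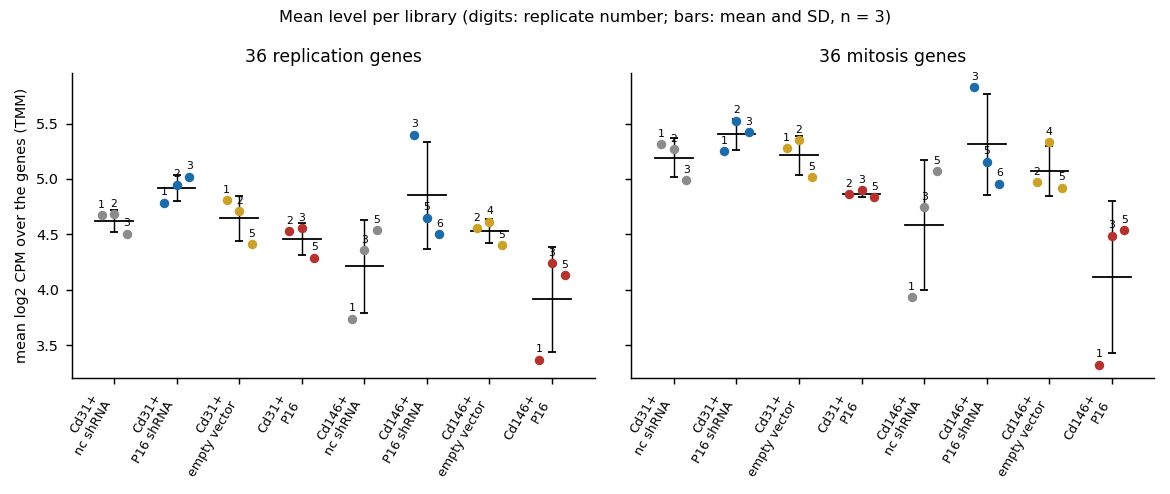
Mean log2 CPM of the 36 replication genes (left) and of 36 mitosis genes (right) in each library, by group, with the replicate number at each point and the mean and SD of the 3 libraries as bars. Cd146+ P16 shRNA replicate 3 (5.40) stands above and Cd146+ P16 replicate 1 (3.37) below all other libraries in the left panel.

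Silencing in Cd31+ cells asked what the replication genes do when P16Ink4a is reduced. P16 shRNA went with higher values than nc shRNA for 33 of the 36 genes and lower values for 3, with a median log2 fold change of 0.31 against 0.00 over all 14358 genes tested. The shift was largest among the genes of Okazaki fragments and single-strand binding (median 0.56), origin licensing (0.43), the MCM2-7 helicase (0.40) and helicase activation (0.37). It was near 0 for the clamp and its loader (0.02), where Pcna was at -0.04 and Rfc5 at -0.05. At an unadjusted p under 0.05 (edgeR), 15 genes were higher and 0 lower, 41.7% of the members against a background of 9.51% of all genes higher at that p. In 16 genes the 3 P16 shRNA libraries all lay above the 3 nc shRNA libraries, which was so for 14.4% of all genes. Such counts use the normalization of the 6 libraries compared, and the printed CPM that of all 24. After adjustment 0 members passed, against 1.3% of all genes in either direction, while DESeq2's Wald test called 1 higher, against 2.65% of all genes.

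The replicate numbers pair the libraries of a population, and the fit with the number as a block changed this call. With the 2 groups and the replicate block, 12 members rose at an adjusted p under 0.05, where 8.92% of all genes rose. With all 12 Cd31+ libraries and the block, 13 members rose against 7.95%. Those of the smaller fit were Mcm2, Mcm3, Mcm5, Gmnn, Mcm10, Gins1, Gins2, Rrm2, Fen1, Lig1, Rpa2 and Chaf1a, and the larger fit added Cdt1. Among the ring subunits, Mcm2 was at 68, 59.2 and 54.5 CPM with nc shRNA and at 81.2, 81.2 and 91.1 CPM with P16 shRNA. All 3 silenced libraries thus lay above all 3 controls, and the log2 fold change was 0.49 ± 0.12 (SE; adjusted p = 0.0962 from edgeR, 0.0172 with the block). Mcm5 was at 55.7, 55 and 46.1 CPM with nc shRNA and at 61, 76 and 85.6 CPM with P16 shRNA, 1.43-fold higher. Mcm4, by contrast, overlapped between the groups (58.5 to 76.9 against 72.1 to 80.1 CPM, log2 fold change 0.15 ± 0.13).

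Gmnn, the inhibitor of Cdt1, was at 16.5, 10.6 and 11.5 CPM with nc shRNA and at 22.3, 18.3 and 16.7 CPM with P16 shRNA. Its log2 fold change was 0.58 ± 0.21 (adjusted p = 0.196 from edgeR, 0.0163 with the block). Orc6, a small subunit of the origin recognition complex, differed by less than its spread (0.08 ± 0.12). Gins1, a subunit of the active helicase, was at 5.43, 4.9 and 3.64 CPM with nc shRNA and at 6.57, 8.24 and 8.87 CPM with P16 shRNA. The groups did not overlap, and its change of 1.71-fold was among the largest of the list. Chaf1a, the large subunit of the factor that places histones behind the fork, was at 20.4, 23.8 and 27.4 CPM with nc shRNA and at 31.4, 34.8 and 37.5 CPM with P16 shRNA, with the smallest adjusted p of the members under the block (0.0072, edgeR). Its overlap with Ubxn6 leaves the value uncertain.

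Fen1 showed the largest fold change, 1.90-fold, at 1.74, 2.36 and 2.07 CPM with nc shRNA and 3.37, 4.56 and 3.69 CPM with P16 shRNA. It is also the gene with the lowest level, and its overlaps with Tmem258 and Gm10143 leave the value uncertain. Rpa2, which coats single-stranded DNA, was at 12.8, 17.1 and 13 CPM with nc shRNA and at 18.4, 23.8 and 20.5 CPM with P16 shRNA (log2 fold change 0.56 ± 0.17; adjusted p = 0.0129 with the block, edgeR). Pola1, Pole, Pold1 and Prim1, the catalytic subunits of the polymerases and the primase, overlapped between the groups, with log2 fold changes between 0.07 and 0.33. Rrm1 was at 397, 295 and 331 CPM with nc shRNA and at 329, 255 and 299 CPM with P16 shRNA, so the 2 subunits of ribonucleotide reductase did not move together: Rrm2 was at 51.3, 65.3 and 69.3 against 62.4, 91.2 and 95.6 CPM (adjusted p = 0.0158 with the block, edgeR). Endothelial markers were lower with P16 shRNA, at 285 to 606 CPM summed against 487 to 1010, and mesenchymal markers were at 23800 to 50900 against 20500 to 37300. Their part in the result was not tested. Without P16 shRNA replicate 3 the count at an unadjusted p fell from 15 to 8 genes, and without nc shRNA replicate 3 to 9. For these smaller fits the share of all genes was not computed.

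**Figure D3:**
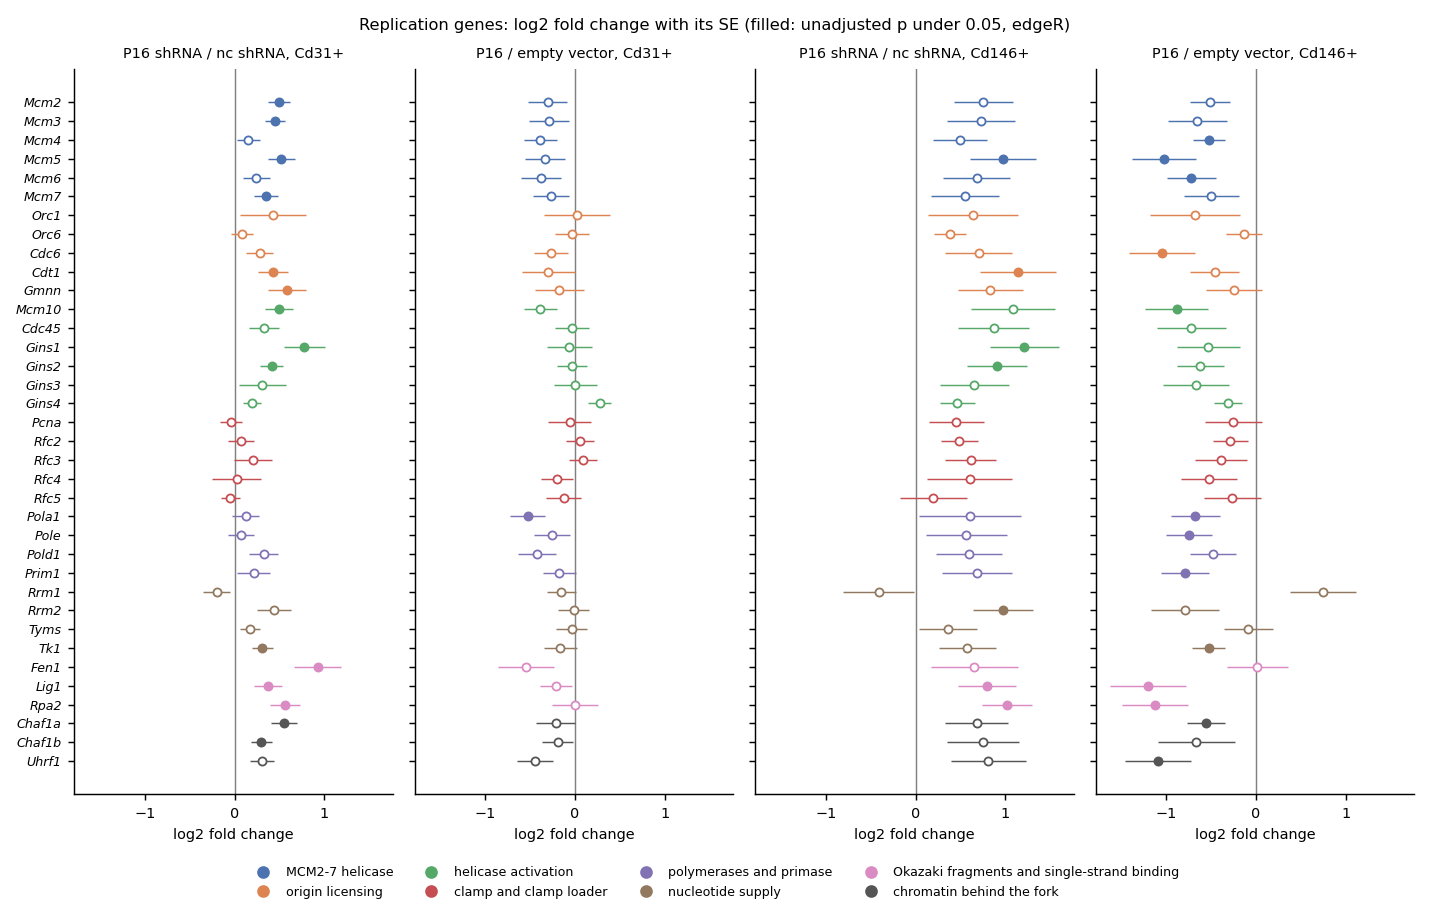
Log2 fold change of the 36 genes with its standard error for each of the 4 constructs set against its control, in order of role, with filled points at an unadjusted p under 0.05 (edgeR). Nearly all points lie right of 0 with P16 shRNA and left of 0 with P16 in Cd146+ cells. Fewer lie left of 0 with P16 in Cd31+ cells, some of them close to 0. Rrm1 lies on the other side in 3 of the 4 panels.

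In Cd146+ cells, the same comparison gave larger but less even differences. Of the 36 genes, 35 were higher with P16 shRNA and only Rrm1 lower, and the median log2 fold change was 0.67 against 0.03 over the 15124 genes tested. At an unadjusted p under 0.05 (edgeR), 7 were higher, against 5.44% of all genes, and in 15 the groups did not overlap, against 10.4%. These 7 were Mcm5, Cdt1, Gins1, Gins2, Rrm2, Lig1 and Rpa2. After adjustment 0 members passed by edgeR or DESeq2, and 0% of all genes did by edgeR; DESeq2 had 11 members higher at an unadjusted p under 0.05, against 2.88% of the genes it tested. With the block over all 12 Cd146+ libraries, 2 members rose at an adjusted p under 0.05, Gins1 (0.0284) and Rpa2 (0.03), where 3.53% of all genes rose, and with the 2 groups alone and the block 0 did.

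Cdt1, the loader of the helicase, was at 8.84, 15.8 and 18 CPM with nc shRNA and at 49.7, 21.5 and 22.2 CPM with P16 shRNA. The 3 silenced libraries lay above the controls, replicate 3 far above the other two. Mcm5 was at 19.1, 35.9 and 43.9 CPM with nc shRNA (replicates 1, 3 and 5) and at 90.1, 52.9 and 49.7 CPM with P16 shRNA (replicates 3, 5 and 6), a log2 fold change of 0.97 ± 0.37. Gins1 was at 2.96, 4.36 and 3.33 CPM against 12.5, 6.33 and 5.72 CPM, 2.32-fold higher and the largest fold of the members. Mcm10, which joins the helicase to the polymerase, was at 6.15, 10.6 and 11.8 against 34.2, 14.3 and 11.6 CPM, with silenced replicate 6 close to the highest control.

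Rpa2 was at 9.33, 8.8 and 16.1 CPM with nc shRNA and at 20.2, 23.1 and 25.3 CPM with P16 shRNA. In Rpa2, as in Gins3 and Gins4, replicate 3 was the lowest silenced library and the groups were still apart. Its log2 fold change was 1.02 ± 0.28 (unadjusted p = 0.00903, edgeR). Lig1, which seals Okazaki fragments, was at 16.3, 26.8 and 30.6 against 58.6, 33.4 and 35.2 CPM. Rfc5 was the member nearest to 0 (0.20 ± 0.37). Rrm1 was at 302, 557 and 265 CPM with nc shRNA and at 413, 242 and 184 CPM with P16 shRNA, with replicate 3 the highest of each group.

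The libraries numbered 3, which hold little Pecam1, held the largest difference. Within number 3 the P16 shRNA library was higher than the nc shRNA library for 35 genes with a median log2 ratio of 1.12, and within number 5 for 26 genes with a median of 0.12. Without both libraries numbered 3, 34 genes were still higher, the median log2 fold change was 0.40, and 1 gene was higher at an unadjusted p under 0.05 (edgeR), against 3.71% of all genes. That contrast then sets nc shRNA replicates 1 and 5 against P16 shRNA replicates 5 and 6, of which only number 5 is shared. The count of 7 became 1 when P16 shRNA replicate 3 was left out, and 2 when either nc shRNA replicate 1 or replicate 3 was. Shares of all genes were not computed with a single library left out. In Cd31+ cells the ratios within numbers 1, 2 and 3 had medians of 0.13, 0.23 and 0.52, with 24, 30 and 34 genes higher. In each of these 5 matched pairs most of the genes were higher with P16 shRNA, by amounts that differed widely between pairs. Of all genes with a mean count of at least 10, 45.4 to 51.2% were higher in these pairs.

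**Figure D4:**
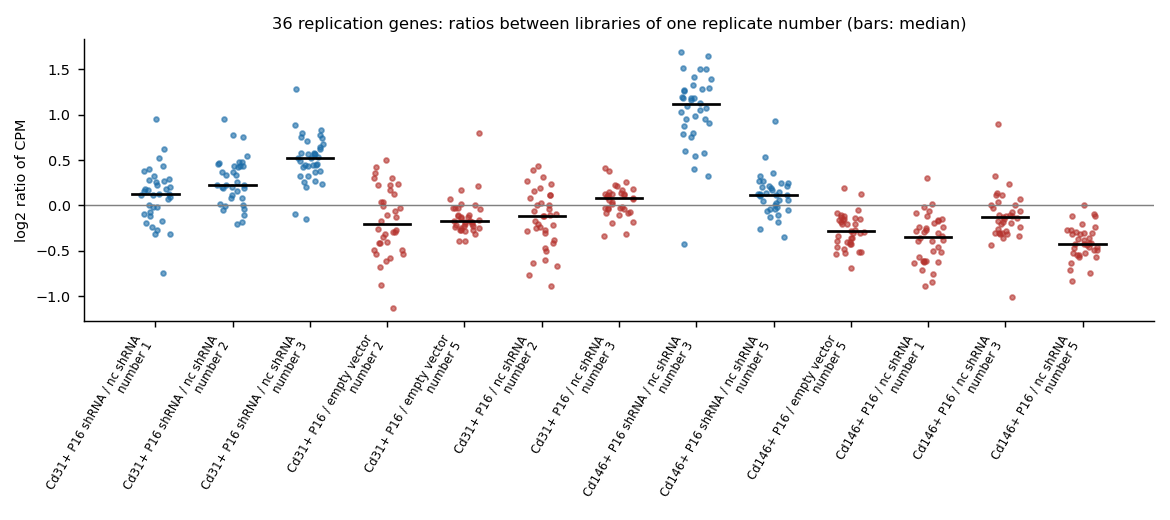
Log2 ratio of CPM for each of the 36 genes between 2 libraries with the same replicate number, P16 shRNA over nc shRNA in blue and P16 over empty vector or nc shRNA in red, with the median as a bar. The medians of the blue columns lie at 0.13, 0.23, 0.52, 1.12 and 0.12, and that of Cd146+ number 3 stands apart.

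Overexpression in Cd31+ cells gave the smallest differences. With P16, 30 of the 36 genes were lower and 6 higher than with empty vector, with a median log2 fold change of -0.18 against 0.01 over the 14565 genes tested. At an unadjusted p under 0.05 (edgeR), 1 was lower, Pola1, the catalytic subunit of polymerase alpha, against 2.29% of all genes. After adjustment 0 members passed by edgeR or DESeq2, as did 0% of all genes by edgeR. In 2 genes the P16 libraries all lay below the empty vector libraries, Pola1 and Fen1, against 6.54% of all genes. With the block over 12 libraries 11 members were lower and 1 higher at an unadjusted p under 0.05, against 5.46% and 5.98% of all genes, with 0 after adjustment. With the 2 groups and the block 1 was lower, against 4.25%. Without empty vector replicate 5 the first count was 10. The share of all genes was not computed for that fit, so the 10 cannot be set beside it.

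Pola1 was at 27.1, 25 and 20.2 CPM with empty vector and at 13.5, 19.9 and 16.7 CPM with P16, 0.695 of the control (log2 fold change -0.53 ± 0.20; unadjusted p = 0.0321, adjusted p = 0.947, edgeR). Mcm6 was at 113, 96 and 69.3 CPM with empty vector and at 72.4, 84.9 and 56.9 CPM with P16, so that replicate 5 was the lowest of each group and the groups overlapped. All 6 ring subunits had log2 fold changes between -0.39 and -0.27. Gins4 went the other way, at 22.5, 22 and 23.2 CPM with empty vector and at 31.2, 24.7 and 26 CPM with P16, without overlap (0.28 ± 0.13; unadjusted p = 0.0694, edgeR). Rrm2 (-0.02 ± 0.17), Rpa2 (0.00 ± 0.26) and Pcna (-0.06 ± 0.24) showed no difference beyond their errors. Uhrf1, which carries DNA methylation through replication, was at 73.6, 65.9 and 44.3 CPM with empty vector and 45.5, 48.3 and 40.7 CPM with P16 (-0.45 ± 0.20). Within number 2 the P16 library was lower than the empty vector library for 24 genes, and within number 5 for 31 (medians -0.21 and -0.17). Of all genes, 52.9 and 47.4% were higher with P16 in these pairs. Against the nc shRNA libraries of the same number, which carry the other vector, P16 was lower for 24 genes in number 2 (median -0.12). In number 3 it was lower for 14 genes and higher for 22 (median 0.08). Against nc shRNA, 51.1 and 51.9% of all genes were higher with P16 in that order.

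In Cd146+ cells, P16 was accompanied by lower values for 34 of the 36 genes, with a median log2 fold change of -0.54 against 0.00 over the 14860 genes tested. By edgeR 13 were lower and 0 higher at an unadjusted p under 0.05, 36.1% of the members against a background of 1.99% of all genes lower. In 21 genes all 3 P16 libraries lay below all 3 empty vector libraries, against 5.04% of all genes. After adjustment 0 members passed by edgeR or DESeq2, as did 0% of all genes by edgeR, and DESeq2 had 12 members lower at an unadjusted p, against 1.64% of the genes it tested. The genes of the polymerases and primase (3 of 4) and the ring (3 of 6) held 6 of the 13, with Cdc6, Mcm10, Tk1, Lig1, Rpa2, Chaf1a and Uhrf1. No member of the clamp and its loader was among them.

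Mcm5 was at 53.6, 53.1 and 45.1 CPM with empty vector (replicates 2, 4 and 5) and at 12.4, 29.2 and 32.7 CPM with P16 (replicates 1, 3 and 5). The groups were well apart, and the log2 fold change was -1.03 ± 0.36 (unadjusted p = 0.028, adjusted p = 0.986, edgeR). Cdc6, which loads the helicase with Cdt1, was at 10.9, 14.6 and 10.8 against 4.06, 4.62 and 8.79 CPM (-1.04 ± 0.37). Cdt1 itself overlapped between the groups, at 20.9, 19.8 and 15.9 against 8.95, 17.4 and 14.6 CPM, and so did Gmnn (-0.24 ± 0.31). The primase subunit Prim1 was at 18.7, 14.2 and 14.2 against 6.12, 11 and 9.97 CPM (-0.79 ± 0.27).

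Lig1 was at 34.6, 57.4 and 29 CPM with empty vector and at 9.12, 21.8 and 21.8 CPM with P16, the largest change of the members (-1.20 ± 0.42). Its overlap with Zswim9 leaves the value uncertain. Rpa2 was at 14.7, 26.8 and 15.7 against 6.12, 8.1 and 11.9 CPM (-1.13 ± 0.36). In both genes the empty vector replicate 4 was the highest library of its group. Uhrf1 was at 51.2, 58.7 and 48.2 against 12.2, 28.7 and 33.2 CPM (-1.09 ± 0.37). Tk1, the thymidine kinase of the salvage pathway, was at 41.7, 45.6 and 38.8 against 23.6, 36.5 and 27.1 CPM and was the only member lower at an unadjusted p under 0.05 with the block over 12 libraries (0.0446, edgeR). Its overlaps with Afmid and Gm20708 leave the value uncertain. Fen1 was at 0.02 ± 0.34. Rrm1 was at 235, 134 and 244 CPM with empty vector and at 297, 511 and 220 CPM with P16 (0.75 ± 0.37). Its log2 fold change over 12 libraries with the block was 0.005 (unadjusted p = 0.976, edgeR), and its level with P16 was below that with nc shRNA within numbers 1, 3 and 5 and below that with empty vector within number 5.

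P16 and empty vector share only number 5 in Cd146+ cells. Within that number 34 genes were lower with P16, with a median log2 ratio of -0.28, where 41.7% of all genes were higher. With the block over 12 libraries, where empty vector enters through replicate 5 alone, 32 were lower, the median log2 fold change was -0.33 and the count at an unadjusted p was 1, against 0.729% of all genes. Against the nc shRNA libraries of the same number, which carry the other vector and also served the silencing comparison, P16 was lower for 34, 27 and 35 genes in numbers 1, 3 and 5, with medians of -0.35, -0.13 and -0.42. Of all genes, 53, 51 and 48.7% were higher with P16 in these pairs. The count of 13 was 13 without P16 replicate 3, the P16 library with little Pecam1 (1% of all genes, median -0.70), and 8 without P16 replicate 1. Leaving out a library of the empty vector gave 8 (replicate 5), 4 (replicate 2) and 2 (replicate 4). Apart from the fit without P16 replicate 3, the share of all genes was not computed when a library was left out. Empty vector replicate 4 held 454 CPM of Col1a1 where the other Cd146+ libraries held 4309 to 13300 CPM. Its part in the result was not tested.

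**Figure D5:**
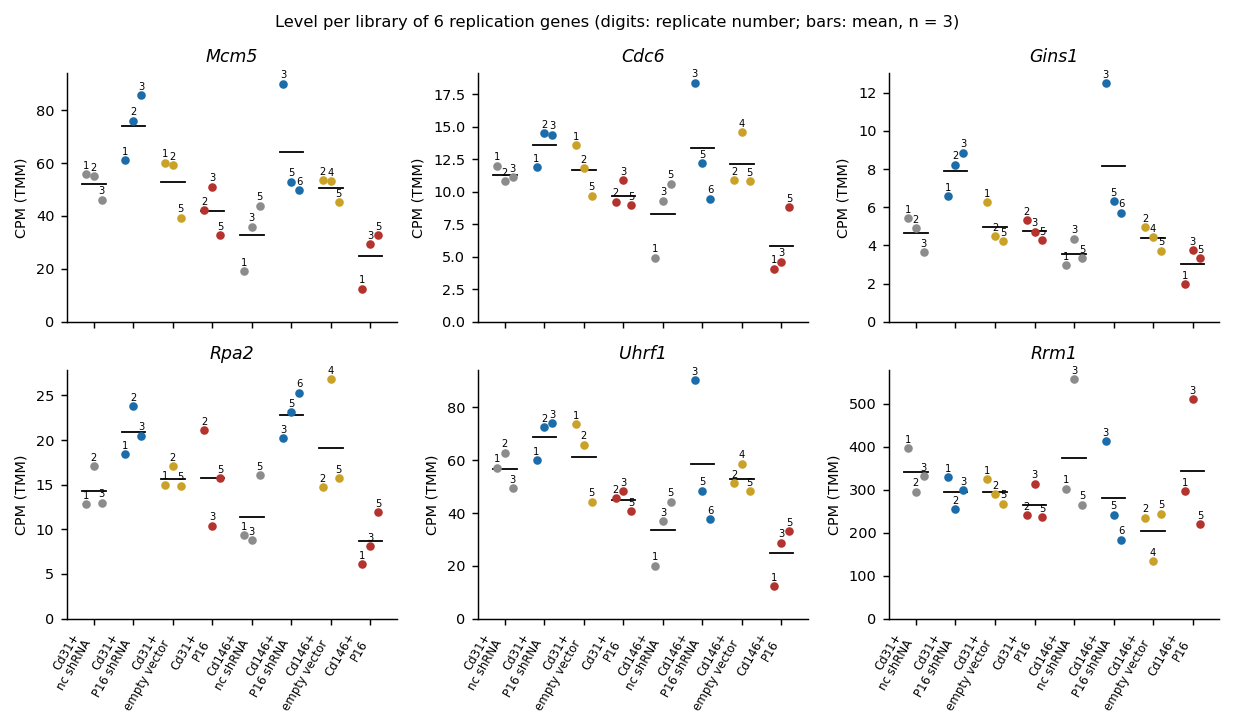
CPM of 6 replication genes in every library, by group, with the replicate number at each point and the mean of the 3 libraries as a bar. Mcm5, Cdc6 and Uhrf1 are lowest with P16 in Cd146+ cells, Gins1 and Rpa2 are higher with P16 shRNA in both populations, and Rrm1 is highest in the Cd146+ libraries numbered 3 with nc shRNA and P16.

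The 2 control constructs were compared to see how far a control alone moves these genes. In Cd31+ cells, nc shRNA against empty vector gave a median log2 fold change of -0.02 with 17 genes higher and 19 lower, and 0 members at an unadjusted p under 0.05 by edgeR or DESeq2, against 3.16% of all genes. In Cd146+ cells the median was -0.29, 31 genes were lower, and 1 member was at an unadjusted p under 0.05 (edgeR), against 3.99% of all genes. That member was Rrm1, at 302, 557 and 265 against 235, 134 and 244 CPM (log2 fold change 0.88, unadjusted p = 0.0493, edgeR). With the block over 12 libraries Rrm1 was at 0.15 (unadjusted p = 0.348, edgeR), 22 genes were lower and 14 higher, the median was -0.05 and 0 members were at an unadjusted p under 0.05. Without nc shRNA replicate 3 the median was -0.35, with 32 genes lower and 0 at that p. In Cd31+ cells the block gave medians of -0.05 (2 groups) and -0.12 (12 libraries). The control libraries of the Cd146+ cells share only number 5, within which nc shRNA was higher for 30 genes (median 0.13). In that pair 44.7% of all genes were higher.

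Between the populations, over the 12 control libraries with the construct as a term, 33 genes were lower and 3 higher in Cd146+ than in Cd31+ cells, with a median log2 fold change of -0.23. At an unadjusted p under 0.05 (edgeR), 8 were lower and 0 higher, 22.2% of the members against 17.5% of all genes in either direction, and 0 passed after adjustment, while DESeq2 called 1 lower, against 2% of all genes. The 8 were Mcm2, Mcm4, Mcm6, Cdt1, Pola1, Pole, Pold1 and Uhrf1, with Cdt1 the lowest at -0.75 ± 0.21. Some replicate numbers entered with both control constructs, and their libraries were treated as independent. No fit with the replicate block was run here, so these p-values do not allow for that pairing. The median was -0.37 with the nc shRNA libraries alone and -0.15 with the empty vector libraries alone. With the latter 0 members were lower at that p and 1 was higher. Without Cd146+ nc shRNA replicate 3 the median was -0.26, with 9 members lower, against 8.7% of all genes lower, and 1 higher.

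Whether the constructs acted differently in the 2 populations was tested over all 24 libraries. For silencing, 34 genes had a larger log2 fold change in Cd146+ cells, with a median difference of 0.43, and 0 members differed at an unadjusted p under 0.05 by edgeR or DESeq2, against 1.2% of all genes. With the replicate block the median difference was 0.26, and without the Cd146+ libraries numbered 3 it was 0.12. For overexpression the median difference was -0.36. By edgeR 3 members differed at an unadjusted p under 0.05, all lower in Cd146+ cells, against 3.82% of all genes, and 0 after adjustment. Without the Cd146+ libraries numbered 3 the median was -0.54 and 6 were lower, with the share of all genes not computed for that fit. The 3 were Gins4 (-0.58 ± 0.18), Rpa2 (-1.13 ± 0.42) and Lig1 (-0.98 ± 0.46), none of which kept an unadjusted p under 0.05 with the block. With the block the median difference was -0.16 and 8 members turned in sign. A difference between the populations was therefore not shown for any member after adjustment.

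Members with an E2F word and members without one had medians close to each other. With P16 shRNA in Cd31+ cells the median log2 fold change was 0.30 for the 9 genes with a word and 0.33 for the 20 without, and in Cd146+ cells 0.65 and 0.68. With P16 the medians were -0.27 and -0.18 in Cd31+ cells and -0.68 and -0.53 in Cd146+ cells. Of the 13 genes lower with P16 in Cd146+ cells, Mcm5, Mcm6, Cdc6, Pola1 and Uhrf1 hold a word. These are 5 of the 9 genes with a word, beside 6 of the 20 without. With P16 shRNA 2 of the 9 and 10 of the 20 were higher at an unadjusted p under 0.05 (edgeR) in Cd31+ cells. In Cd146+ cells 1 and 4 were, and with P16 in Cd31+ cells 1 and 0 were lower. These values are a description and were not tested.

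Other genes of the replication machinery had medians of the same signs. Of 55 such genes, 41 were higher with P16 shRNA in Cd31+ cells (9 higher and 1 lower at an unadjusted p under 0.05, edgeR) and 47 in Cd146+ cells (9 and 0). With P16, 45 were lower in Cd31+ cells (6 lower, 0 higher) and 44 in Cd146+ cells (8 and 0). The medians were 0.16, 0.46, -0.18 and -0.32 in that order. Of all genes, 9.51, 5.44, 2.29 and 1.99% were in the main direction at that p. Modelling the replicate number over 12 libraries gave 13, 23, 11 and 4 in the main direction. The shares of all genes in those fits were 5.46 and 0.729% with P16 and were not computed with P16 shRNA. Without the Cd146+ libraries numbered 3, 3 were higher with P16 shRNA (median 0.22) and 10 lower with P16 (median -0.45). Of all genes, 3.71 and 1% were so in those fits. With P16 shRNA, Dut, which removes dUTP, was at 1.45-fold in Cd31+ and 2.00-fold in Cd146+ cells, Pold2, a subunit of polymerase delta, at 1.34-fold in Cd31+ cells, and the histone chaperone Asf1a at 1.89-fold in Cd146+ cells. Cul4a, a scaffold of the ubiquitin ligase that removes Cdt1, was lower in both (log2 fold changes -0.30 ± 0.10 and -0.26 ± 0.17), the first at an unadjusted p of 0.0191. With P16, Dbf4, the activator of the kinase Cdc7, was at 0.732 of its control in Cd31+ cells, and Ticrr, which brings Cdc45 to origins, was at 0.604 in Cd31+ and 0.505 in Cd146+ cells. Clspn, an adaptor of the fork checkpoint, was at 0.432 in Cd146+ cells. None of these passed after adjustment in the fits without the block. Rrm2b, another small subunit of ribonucleotide reductase that responds to p53, had a positive log2 fold change with P16 in Cd146+ cells (0.45 ± 0.20; unadjusted p = 0.0659, edgeR), and at 0.22 with the block (unadjusted p = 0.154).

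The 36 mitosis genes, given because they mark the later part of the cell cycle, also had medians of the same signs. Their median log2 fold changes were 0.24 and 0.77 with P16 shRNA in Cd31+ and Cd146+ cells and -0.33 and -0.85 with P16. At an unadjusted p under 0.05 (edgeR), 14 were lower with P16 in Cd31+ cells, where 1 replication gene was, and 21 in Cd146+ cells, where 13 were. With P16 shRNA in Cd31+ cells the counts were 7 mitosis genes and 15 replication genes. The shares over all genes were 2.29%, 1.99% and 9.51% in that order. Once the replicate number was modelled over 12 libraries, 19 mitosis and 11 replication genes were lower with P16 in Cd31+ cells and 4 and 1 in Cd146+ cells, and 15 and 17 were higher with P16 shRNA in Cd31+ cells. The shares of all genes in those fits were 5.46 and 0.729% with P16 and were not computed with P16 shRNA. Without the Cd146+ libraries numbered 3, 16 mitosis genes were lower with P16 (median -1.01) and 3 higher with P16 shRNA (median 0.46). Of all genes, 1 and 3.71% were so in those fits. The difference between the lists was not tested, and both are listed from the same libraries, so that one is no independent check of the other.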

How the data were processed

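The data were RNA-seq of 24 libraries, with 3 per combination of population and construct. The deposited counts are raw reads per gene, without normalization by the authors. The authors also deposited FPKM values, used here for levels between genes. Per the methods, the sequencing company analysed the data. The submitters' processing notes name fastp and mm9, while the aligner is not given in the sources used here, and since the table's coordinates could not be tied to mm9 they are not printed. Columns of the authors' own 4 comparisons (group means, fold changes and p-values) were not used.

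Each construct was compared with its control over 6 libraries in R 4.3.3 with edgeR 4.0.16 (filterByExpr, TMM, robust quasi-likelihood fit, two-sided test, Benjamini-Hochberg adjustment over all genes tested). The controls, the populations and the differences between populations were fitted likewise. CPM are TMM-normalized over all 24 libraries, and log2 CPM use a prior count of 0.125. The members, the gene lists (8 roles, other replication genes, mitosis genes and cell type markers) and the tests were chosen with earlier results of these data known. Named with values are, by rule, the members with the smallest p per role and comparison, the highest FPKM per role, other replication genes with the smallest p per direction, and members called in the other fits. Members named beyond that rule were chosen after their values were seen. Libraries held 15409767 to 26470392 counts. Promoter windows came from RefSeq (GRCm38.p6).

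Replicate numbers come from the sample titles. After group means were taken out, libraries of 1 number correlated with a median r of 0.548 in Cd31+ cells (13 pairs, lowest 0.368) and 0.721 in Cd146+ cells (10 pairs, lowest 0.361), against -0.194 (41 pairs) and -0.0676 (44 pairs) for different numbers, so numbers were taken to pair the samples. No 2 libraries of a group agreed within sampling noise. The alternatives tried were no filter beyond 1 count, DESeq2 1.42.0 (size factors, Wald test), a fit over 12 libraries, the replicate block and each library left out. Leaving out the Cd146+ libraries numbered 3 and the ratios within a number were added after the data were seen. The fits were also run on simulated counts with the same dispersion for every gene and independent libraries. That run cannot show how the fits behave with the spread and pairing of these libraries.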

Additional observations from a re-analysis of the deposited data

How the results depend on the processing

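The direction of the median of the 36 genes was the same under every alternative run for each of the 4 constructs against its control. For nc shRNA against empty vector in Cd31+ cells it ran from -0.16 to 0.08 with 1 library left out, and for the silencing difference between populations from -0.01 to 0.55. Counts of members depended strongly on the setting, and the cause was not tested. For most of the alternatives below the share of all genes was not computed, so those counts cannot be set beside it. No paired analysis of the 2 groups was possible for P16 or nc shRNA against empty vector in Cd146+ cells because they share only number 5.

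With the replicate block and 2 groups, silencing in Cd31+ cells gave 12 members higher at an adjusted p and 1 lower at an unadjusted p, and with 12 libraries 13. In Cd146+ cells silencing gave 4 higher at an unadjusted p with 2 groups, and with 12 libraries 23, of which 2 passed adjustment. The share of all genes at an unadjusted p was not computed for these silencing fits, so the counts of 4 and 23 cannot be set beside it. For P16 in Cd31+ cells the block over 12 libraries gave 11 lower and 1 higher, in Cd146+ cells 1 lower. For nc shRNA against empty vector in Cd31+ cells the block gave 2 (2 groups) and 4 (12 libraries) lower, in Cd146+ cells 0 higher. Over 24 libraries the block gave 1 higher for the silencing difference and 0 lower for the overexpression difference. It changed no other call of a count.

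With all genes of at least 1 count, 4 members passed adjustment for silencing in Cd31+ cells, 13 were higher at an unadjusted p for silencing in Cd146+ cells, 5 lower for P16 in Cd31+ cells, and 1 and 4 lower for nc shRNA against empty vector in Cd31+ and Cd146+ cells. DESeq2's Wald test passed 1 member for silencing in Cd31+ cells and 1 lower between the populations, and had 11 at an unadjusted p for silencing in Cd146+ cells. One fit over 12 libraries gave 4 lower and 1 higher for P16 in Cd31+ cells, 12 higher for silencing and 6 lower for P16 in Cd146+ cells, and 0 for the Cd146+ controls. Without the Cd146+ libraries numbered 3, silencing had 1 higher and the overexpression difference 6 lower. The empty vector libraries alone gave 1 higher and 0 lower between the populations.

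With 1 library left out, members at an unadjusted p ran from 8 to 14 (silencing, Cd31+), 0 to 10 lower (P16, Cd31+; 0 without empty vector replicate 1, 10 without replicate 5), 1 to 10 (silencing, Cd146+), 2 to 15 lower and 0 to 1 higher (P16, Cd146+), 0 to 1 (controls, Cd31+), 0 to 1 higher and 0 to 9 lower (controls, Cd146+; 9 without nc shRNA replicate 5), 5 to 14 lower and 0 to 1 higher (populations; 14 without Cd31+ empty vector replicate 5), 0 to 2 higher (silencing difference) and 1 to 7 lower and 0 to 1 higher (overexpression difference).

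Cdkn2a stayed between -3.39 and -2.81 for silencing in Cd31+ cells with 1 library left out, and did not pass adjustment at either end (without P16 shRNA replicate 1 and without nc shRNA replicate 3). It passed adjustment with DESeq2's Wald test for P16 in Cd31+ (2.02) and Cd146+ cells (2.44) and for silencing in Cd146+ cells (-3.21), with the block and 2 groups for P16 in Cd31+ cells (1.77) and with the block over 12 libraries for silencing in Cd146+ cells (-3.39).

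Of all 36 members, the block turned the sign of 6 for P16 in Cd31+ cells (with 2 groups and with 12 libraries), 1 for silencing in Cd31+ cells, 2 for P16 in Cd146+ cells (Gins3 from -0.67 to 0.01), 7 and 10 for nc shRNA against empty vector in Cd31+ cells (2 groups and 12 libraries), 9 in Cd146+ cells (Gins3 from -0.50 to 0.16) and 8 for the overexpression difference, and of 0 for silencing in Cd146+ cells and the silencing difference. Among the members named by rule, these were Gmnn and Orc6 (0.14 with 2 groups, 0.05 with 12 libraries), Gins1 (0.13 and 0.00) and Rfc3 (-0.05) for P16 in Cd31+ cells, Rfc4 (-0.01) for silencing in Cd31+ cells and Gmnn (0.06) for P16 in Cd146+ cells. Rpa2 was at 0.00 with all genes for P16 in Cd31+ cells, and Pola1 at -0.11 without number 3 for silencing in Cd146+ cells. With 1 library left out, silencing in Cd31+ cells ran from -0.02 to 0.34 for Rfc3, -0.27 to 0.20 for Rfc4, -0.04 to 0.18 for Rfc2 and -0.13 to 0.02 for Pcna. P16 in Cd31+ cells ran from -0.35 to 0.14 for Gmnn, -0.18 to 0.13 for Orc6 and Gins1, -0.01 to 0.19 for Rfc3, -0.05 to 0.16 for Rfc2, -0.23 to 0.13 for Pcna, -0.13 to 0.16 for Rrm2 and -0.25 to 0.23 for Rpa2. In Cd146+ cells silencing ran from -0.02 to 0.85 for Rfc4 and -0.11 to 0.96 for Pola1, and P16 from -0.43 to 0.00 for Gmnn, -0.53 to 0.04 for Pcna and -0.13 to 0.14 for Fen1.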
